A study of Mus musculus with 32 samples.

Results

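A group of 10 genes that encode RNA-binding proteins was followed through cortical neurogenesis: Ptbp1, Ptbp2, Elavl1, Elavl2, Elavl3, Elavl4, Nova1, Nova2, Celf4 and Rbfox2. They were chosen by symbol, and all 10 were among the 32285 genes counted. Single-cell RNA was measured in the lateral part of the dorsal telencephalon, the embryonic tissue that gives rise to the cerebral cortex, of C57BL/6J mouse embryos. Wild-type (WT) embryos were set against litter- and sex-matched heterozygotes with 1 mutant Chd8 allele (Chd8+/-, called het here), at E12.5, at E14.5, at E16.0 or at E17.5. Each of the 8 groups held 4 libraries, each from 1 embryo, 2 males (M1, M2) and 2 females (F1, F2), which made 32 libraries. The labels name 10x 3′ v2 chemistry, and medial tissue had been removed. Chd8 encodes a chromatin remodeller, and the labels give the genotype without describing the mutation. Within each library the UMI counts were summed over 3 sets of cells, those with at least 1 UMI of Sox2, of Eomes or of Neurod6, and each gene's sum was scaled by all UMIs of that set to CPM, the usual counts per fixed number of UMIs.

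Sox2 marks neural progenitors, Eomes (Tbr2) the intermediate progenitors that divide to give neurons, and Neurod6 the excitatory neurons of the cortex. PTBP1 represses neuronal exons in progenitors and non-neuronal cells, and it also represses a neuronal exon of its paralog Ptbp2, so that its loss lets PTBP2 protein accumulate in young neurons. The ELAVL (Hu) proteins bind AU-rich RNA: ELAVL1 (HuR) is made in most cell types, whereas ELAVL2, ELAVL3 and ELAVL4 are neuronal. NOVA1, NOVA2, RBFOX2 and CELF4 bind RNA in neurons and regulate exon choice, and CELF4 also binds mature mRNAs. The libraries count transcripts by their 3′ ends, so the values below are amounts of RNA of each gene and do not show which exons were used or how much protein was made.

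The promoters of Ptbp1 and Elavl3 are shown because these members had clearly opposite patterns across the 3 sets. Each window is the 250 bases before the RefSeq start of the gene in GRCm38.p6, 5′ to 3′ on the gene's strand, at chr10:79854182-79854431 on the plus strand for Ptbp1 and chr9:22052024-22052273 on the minus strand for Elavl3. Capitals mark matches to CANNTG, the E-box to which proneural and other basic helix-loop-helix proteins bind.
Ptbp1: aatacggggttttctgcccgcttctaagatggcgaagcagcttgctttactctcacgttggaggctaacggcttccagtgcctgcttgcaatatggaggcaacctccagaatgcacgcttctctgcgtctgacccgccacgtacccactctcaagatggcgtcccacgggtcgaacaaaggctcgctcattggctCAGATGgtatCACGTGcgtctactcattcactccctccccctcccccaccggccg
Elavl3: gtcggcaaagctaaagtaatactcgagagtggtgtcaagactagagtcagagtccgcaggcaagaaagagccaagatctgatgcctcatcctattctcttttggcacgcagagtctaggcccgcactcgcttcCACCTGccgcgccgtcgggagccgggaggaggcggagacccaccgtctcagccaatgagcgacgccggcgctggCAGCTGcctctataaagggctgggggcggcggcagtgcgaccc
Each window held 2 matches. The motif reads the same on both strands, and it was found in 66.2% of the 32851 RefSeq windows of this length, so its presence does not set these promoters apart. Windows of 8 of the 10 members were in the table, and a match is a run of letters, not a shown binding site.

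After filtering, 138226 cells were retained, of which 54083 were Sox2-detected, 31760 Eomes-detected and 84882 Neurod6-detected. The sets overlap, since a cell can hold UMIs of several gate genes. Between 9.18% and 30.1% of the Sox2-detected cells of a library also held a Neurod6 UMI at E12.5, and between 31.4% and 54.6% at E17.5. Of the Eomes-detected cells of a library, 56.5% to 87.3% also held a Neurod6 UMI (median 79.2%), so most of that set also lies in the Neurod6-detected set. Differences between sets were therefore also computed on cells with only 1 of the 3 gate genes, which left 2581 of the Eomes-detected cells. The summed CPM of 7 radial glia markers in WT was 2472 to 2950.0 in Sox2-detected against 1350.4 to 1633 in Neurod6-detected cells at E12.5, and that of 7 excitatory neuron markers, Neurod6 included, was 531 to 679.8 against 3668 to 4519. The 6 intermediate progenitor markers, Eomes included, summed to 1658 to 2303 CPM in the Eomes-detected cells. In WT Eomes-detected cells at E12.5 the 7 excitatory neuron markers summed to more, 3028 to 3249 CPM. Interneuron and oligodendrocyte precursor RNA was higher late than early in the Sox2-detected cells: 6 interneuron markers summed to 2.03 to 26.9 CPM at E12.5 and 144 to 559 CPM at E17.5 in WT, and 4 oligodendrocyte precursor markers to 1.12 to 1.65 and 204 to 434 CPM, with no marker of either list at 0. Levels are compared between libraries, sets and stages of 1 gene and not between genes. Libraries held between 2399 and 6951 retained cells and between 14710694 and 66499864 UMIs. Any 2 libraries shared at most 66 cell barcodes, and in no pair of libraries were the shared barcodes more than 1.3% of the smaller one. At E17.5 the libraries WT M1, het M1 and het F1 stood apart from the other 5 on the leading component, which held between 58.4% and 66.4% of the variance. Leaving these 3 out ended no call of a member between E12.5 and E17.5. That comparison is of WT libraries, so of the 3 only WT M1 is in it, and the het libraries enter only through the shared spread. At E14.5 the males carry another kind of sample code in the labels than the females, so sex and whatever the code stands for cannot be told apart there.

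Ptbp1, the repressor of neuronal exons, was highest in Sox2-detected cells and fell with stage in all 3 sets. In WT Sox2-detected cells its level was 157, 164, 158 and 156 CPM at E12.5 and 82.1, 105, 109.9 and 102 CPM at E17.5 (values in the order M1, M2, F1, F2 here and below). In WT Neurod6-detected cells it was 79.8, 105, 83.2 and 84.7 CPM at E12.5 and 29.3, 54.3, 43 and 54.2 CPM at E17.5. The 2 stages did not overlap in either set, and in all 32 libraries the level was lower in the Neurod6-detected than in the Sox2-detected cells. Over the 4 stages in WT, Ptbp1 was 2.2-fold lower in Neurod6-detected than in Sox2-detected cells (log2 difference -1.14 ± 0.03, SE here and below; edgeR, adjusted p = 2.4e-26), and the difference grew to -2.11 ± 0.04 in cells with only 1 gate gene. Eomes-detected cells lay between, -0.47 ± 0.03 against Sox2-detected cells (edgeR, adjusted p = 1.5e-14). Between E12.5 and E17.5 in WT the log2 change was -0.87 ± 0.11 in Sox2-detected (edgeR, adjusted p = 4.6e-08), -0.46 ± 0.11 in Eomes-detected (edgeR, adjusted p = 0.0014) and -1.05 ± 0.22 in Neurod6-detected cells (edgeR, adjusted p = 0.00013). In cells with 1 gate gene only, the fall passed in the Sox2-detected cells (-0.85 ± 0.11) but not in the Neurod6-detected cells (-0.37 ± 0.19, edgeR, adjusted p = 0.1) or the Eomes-detected cells (-0.53 ± 0.20, edgeR, adjusted p = 0.062). Between these stages the WT Neurod6-detected cells held 60.2 ± 3.28 CPM at E14.5 and 60.3 ± 8.94 CPM at E16.0 (mean ± SD, n = 4). A sum over a set does not show whether fewer cells held the RNA or each cell held less of it. Ptbp1 (ENSMUSG00000006498, chr10:79854427-79864771, plus strand, positions in GRCm38 from GENCODE M21) overlaps Plppr3 on the opposite strand. In that annotation 9 of the 10 members overlap at least 1 other gene, all but Elavl4, and reads of overlapping genes cannot be told apart here because the strand setting of the counting is not given in the sources used here.

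Ptbp2, the neuronal paralog that PTBP1 represses, was nearly level between Sox2- and Neurod6-detected cells and fell with stage. In WT Sox2-detected cells it was at 269.9, 262, 304 and 293 CPM at E12.5 and 169.8, 168, 169 and 164 CPM at E17.5. In WT Neurod6-detected cells it was at 293, 290.3, 327 and 301 CPM at E12.5 and 204, 219.7, 185 and 199 CPM at E17.5. All E12.5 values lay above all E17.5 values within each set, while the 2 sets overlapped at E12.5 and not at E17.5. Averaged over stages, the log2 difference of Neurod6-detected over Sox2-detected cells was 0.11 ± 0.02 (edgeR, adjusted p = 4.6e-07), a 1.08-fold difference, and it was 0.01 ± 0.03 at E12.5 (edgeR, adjusted p = 0.76) and 0.33 ± 0.04 at E17.5 (edgeR, adjusted p = 6.5e-10). The level was above that of Sox2-detected cells in Eomes-detected cells (0.25 ± 0.02, edgeR, adjusted p = 1.5e-14), but in cells with 1 gate gene only it did not pass (-0.01 ± 0.04, edgeR, adjusted p = 0.87). From E12.5 to E17.5 in WT it fell by 0.96 ± 0.09 on the log2 scale in Sox2-detected (edgeR, adjusted p = 1.2e-10), by 0.82 ± 0.09 in Eomes-detected (edgeR, adjusted p = 1.9e-08) and by 0.67 ± 0.10 in Neurod6-detected cells (edgeR, adjusted p = 1.3e-06). Both paralogs thus fell with stage, while between sets Ptbp1 was lower and Ptbp2 slightly higher in the Neurod6-detected cells. Ptbp2 (ENSMUSG00000028134, chr3:119718742-119784466, minus strand) gave between 620 and 14397 UMIs per library in the Sox2-detected cells.

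**Figure D1:**
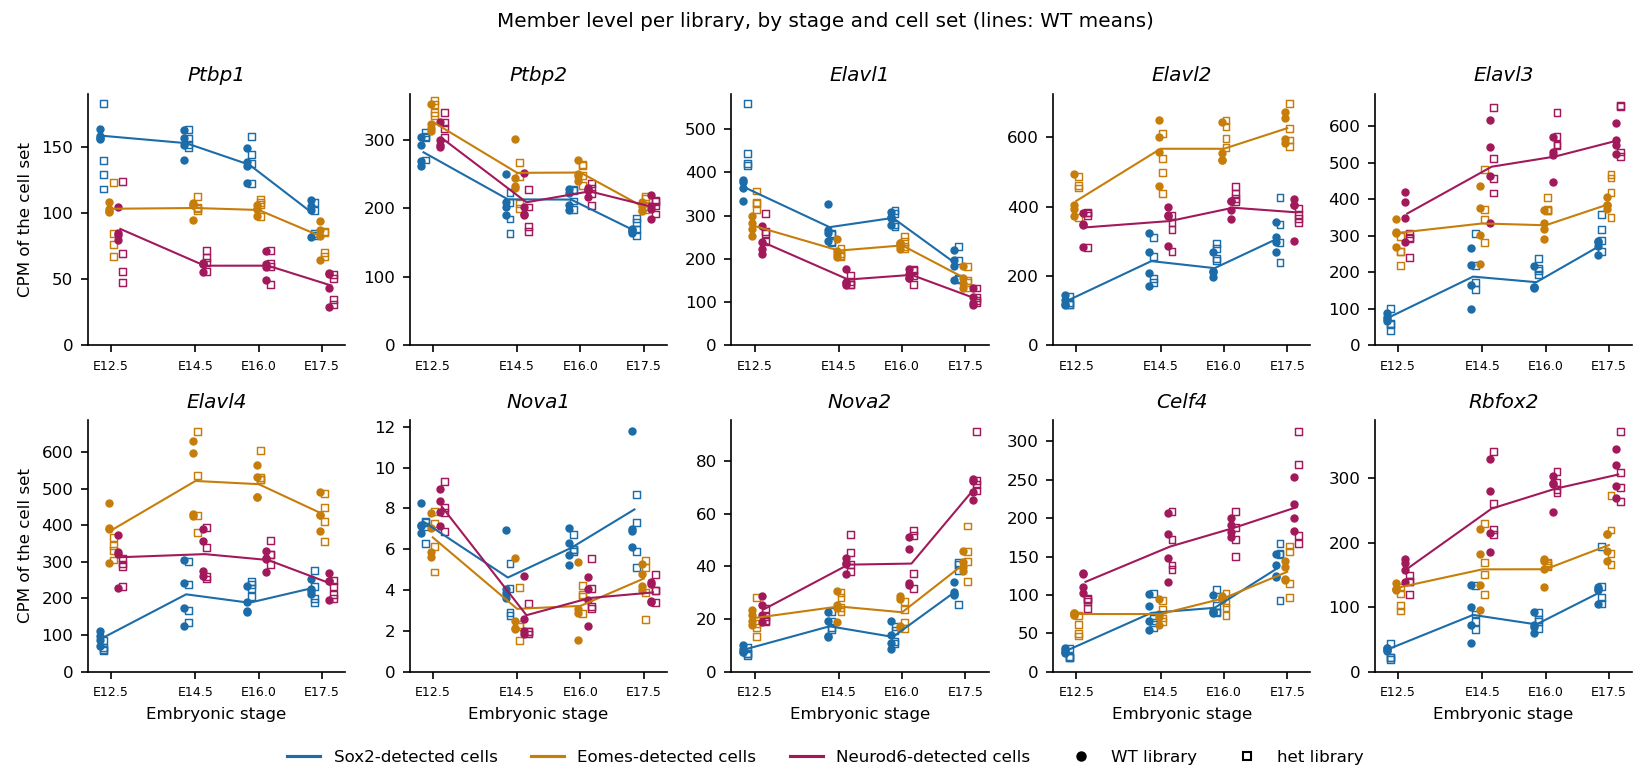
Level of each of the 10 members in CPM (vertical axes from 0, scaled per gene) against embryonic stage, with 1 point per library and cell set. Filled circles are WT and open squares het libraries, colours are the 3 cell sets and lines join the WT means. Ptbp1 and Elavl1 are highest in the Sox2-detected cells, Elavl2 and Elavl4 in the Eomes-detected cells, and Elavl3, Nova2, Celf4 and Rbfox2 in the Neurod6-detected cells.

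Genes tied to Ptbp1 in the textbook circuit were read beside it. REST represses neuronal genes outside neurons, miR-124 targets Ptbp1 RNA, and miR-9 is made in neural progenitors and neurons; for the miRNAs only the long host transcripts were counted. Rest was at 39.4 ± 7.12 CPM (SD, n = 4) in WT Sox2-detected cells at E12.5 and 15.5 ± 7.13 at E17.5. In Neurod6-detected cells it was at 19.4 ± 2.2 CPM at E12.5 and 4.7 ± 2.15 at E17.5. It was lower in Neurod6-detected than in Sox2-detected cells (-1.53 ± 0.05 in log2, edgeR, adjusted p = 1.4e-23), as Ptbp1 was. The host transcripts of miR-124 went the other way between these sets: Mir124a-1hg differed by 2.23 ± 0.07 (edgeR, adjusted p = 3.1e-25) and Mir124-2hg by 1.43 ± 0.03 (edgeR, adjusted p = 6.4e-29). With stage the 2 hosts parted. In WT Neurod6-detected cells Mir124a-1hg rose from 15.2 ± 1.58 CPM at E12.5 to 62.8 ± 6.37 at E17.5 (1.96 ± 0.21 in log2, edgeR, adjusted p = 4.3e-09), whereas Mir124-2hg was at 172 ± 9.32 and 162 ± 14.9 CPM (-0.18 ± 0.09, edgeR, adjusted p = 0.094). In Eomes-detected cells Mir124-2hg fell (-1.02 ± 0.09, edgeR, adjusted p = 3.1e-10), and its fall passed in Sox2-detected cells too. Mir9-3hg was lower in Neurod6-detected than in Sox2-detected cells over the 4 stages (-0.56 ± 0.02, edgeR, adjusted p = 4.3e-22), although at E12.5 this difference did not pass. It fell with stage in Neurod6-detected cells (-1.39 ± 0.19, edgeR, adjusted p = 4.9e-07).

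Elavl1, the broadly made HuR gene, was lower in Neurod6-detected than in Sox2-detected cells and fell with stage, as Ptbp1 did. In WT Sox2-detected cells it was at 334, 378, 382 and 364 CPM at E12.5 and 151, 197, 184 and 220.4 CPM at E17.5, and in WT Neurod6-detected cells at 211, 276, 239.6 and 224 CPM and 93.7, 111, 97.7 and 132 CPM. The stages did not overlap in either set, and the Neurod6-detected cells had the lower value in all 32 libraries. The log2 difference of Neurod6-detected over Sox2-detected cells was -0.78 ± 0.02 in WT (edgeR, adjusted p = 1.4e-26), and Eomes-detected cells lay between the others (-0.33 ± 0.02 against Sox2-detected cells, edgeR, adjusted p = 1.3e-15). Elavl1 fell from E12.5 to E17.5 by 1.16 ± 0.14 on the log2 scale in Sox2-detected (edgeR, adjusted p = 2.6e-08), by 0.97 ± 0.10 in Eomes-detected (edgeR, adjusted p = 6.5e-09) and by 1.22 ± 0.12 in Neurod6-detected cells (edgeR, adjusted p = 1e-09). In cells with 1 gate gene only its fall still passed in all 3 sets, at -1.04, -0.70 and -0.78 in log2. Elavl1 lies at ENSMUSG00000040028, chr8:4285382-4325413, minus strand.

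The neuronal Hu genes split into a pair that peaked in the Eomes-detected cells, Elavl2 and Elavl4, and Elavl3, which was highest in the Neurod6-detected cells. Elavl2 was at 143, 116, 132 and 119.7 CPM in WT Sox2-detected, 494, 374, 403 and 394 CPM in Eomes-detected and 381, 282, 351 and 346 CPM in Neurod6-detected cells at E12.5. At E17.5 the values were 355, 268, 312 and 297 CPM, 672, 655, 585 and 594 CPM and 404, 423, 302 and 405 CPM. The Eomes-detected cells were above the Neurod6-detected cells in all 32 libraries, for Elavl2 (-0.55 ± 0.04 in log2 for Neurod6- over Eomes-detected cells in WT, edgeR, adjusted p = 6.2e-14) and for Elavl4 (-0.65 ± 0.04, edgeR, adjusted p = 4.1e-16). Both differences held in cells with 1 gate gene only, at -0.49 ± 0.06 and -0.68 ± 0.09. Against Sox2-detected cells, the Eomes-detected cells were 2.52-fold higher for Elavl2 (1.34 ± 0.04 in log2, edgeR, adjusted p = 1.5e-23) and 2.74-fold higher for Elavl4 (1.45 ± 0.04, edgeR, adjusted p = 1.3e-24).

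Elavl4 (HuD) was at 111, 69, 96.3 and 86.3 CPM in WT Sox2-detected, 462, 297, 391 and 392 CPM in Eomes-detected and 373, 229, 326 and 322 CPM in Neurod6-detected cells at E12.5. At E17.5 it was at 253, 213, 226 and 221 CPM, 489, 427, 426 and 383 CPM and 246, 271, 195 and 247 CPM. The change with stage had no common direction over the sets: it rose in Sox2-detected cells (1.13 ± 0.20 in log2, edgeR, adjusted p = 1.2e-05), was 0.03 ± 0.14 in Eomes-detected cells (edgeR, adjusted p = 0.86) and fell in Neurod6-detected cells (-0.47 ± 0.15, edgeR, adjusted p = 0.0091), where the values of the 2 stages overlapped. Elavl2 rose in Sox2-detected (1.06 ± 0.15, edgeR, adjusted p = 8.5e-07) and Eomes-detected cells (0.46 ± 0.11, edgeR, adjusted p = 0.0011) and did not pass in Neurod6-detected cells (0.09 ± 0.13, edgeR, adjusted p = 0.57). In cells with 1 gate gene only the rise of Elavl2 in Sox2-detected cells did not pass (-0.11 ± 0.18, edgeR, adjusted p = 0.64), and that of Elavl4 still did (1.25 ± 0.25, edgeR, adjusted p = 0.0001). With 2 UMIs of Eomes asked of a cell, the rise of Elavl2 in Eomes-detected cells did not pass (0.20 ± 0.10, edgeR, adjusted p = 0.094). Elavl2 lies at ENSMUSG00000008489, chr4:91250763-91400785, minus strand, and Elavl4 at ENSMUSG00000028546, chr4:110203722-110351909, minus strand.

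Elavl3 (HuC), used as a marker of newborn neurons, was at 89.2, 71.2, 76.2 and 65.9 CPM in WT Sox2-detected cells at E12.5 and 286, 271, 284 and 246 CPM at E17.5. In WT Neurod6-detected cells it was at 419, 281, 349 and 392 CPM at E12.5 and 608, 549, 563 and 524 CPM at E17.5. No library of one stage reached the range of the other, and the Neurod6-detected cells were higher in all 32 libraries. In WT, Elavl3 was 2.99-fold higher in Neurod6-detected than in Sox2-detected cells (1.58 ± 0.03 in log2, edgeR, adjusted p = 6.6e-30), and 6.1-fold higher in cells with 1 gate gene only. It rose with stage in Sox2-detected (1.64 ± 0.22, edgeR, adjusted p = 1.4e-07) and Neurod6-detected cells (0.55 ± 0.14, edgeR, adjusted p = 0.0014) and did not pass in Eomes-detected cells (0.20 ± 0.13, edgeR, adjusted p = 0.22). At E14.5 the Sox2-detected cells of WT spread over 267, 219, 99.2 and 165 CPM and those of het over 305, 218, 154 and 171 CPM, with both males above both females in each genotype. Neurod6 itself was at 92.4, 83.7, 76.3 and 41.8 CPM in the WT Sox2-detected cells at E12.5, 533, 433, 214 and 355 CPM at E14.5 and 375, 267, 386 and 310.1 CPM at E17.5. The part of this Neurod6 RNA in the rise of Elavl3 was not tested. Without cells that also held Neurod6 or Eomes UMIs, the change of Elavl3 in the set was 2.12 ± 0.23 in log2 (edgeR, adjusted p = 5.8e-09). Cells with interneuron genes were not left out there, and their part was not tested. With 2 UMIs of Neurod6 asked of a cell, its rise in Neurod6-detected cells did not pass (0.16 ± 0.13, edgeR, adjusted p = 0.29). Elavl3 lies at ENSMUSG00000003410, chr9:22015005-22052023, minus strand.

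NOVA1 and NOVA2 are paralogs that bind clusters of a short motif in neuronal RNA. Nova2 was higher but Nova1 lower in Neurod6-detected than in Sox2-detected cells. Nova2 was at 10.2, 7.58, 8.51 and 7.57 CPM in WT Sox2-detected cells at E12.5 and 29.6, 33.9, 29.1 and 30.1 CPM at E17.5. The WT Neurod6-detected cells had 25.4, 19, 21.6 and 28.8 CPM at E12.5 and 65.2, 72.4, 73.2 and 68.3 CPM at E17.5. Every E17.5 library was above every E12.5 library in both sets, and the Neurod6-detected cells were higher in all 32 libraries. Nova2 rose with stage in all 3 sets, by 1.66 ± 0.20 in log2 in Sox2-detected (edgeR, adjusted p = 3.1e-08), 0.90 ± 0.19 in Eomes-detected (edgeR, adjusted p = 0.00025) and 1.48 ± 0.17 in Neurod6-detected cells (edgeR, adjusted p = 2.4e-08). It rose in the first step, from E12.5 to E14.5, by 0.89 ± 0.19 in Sox2-detected (edgeR, adjusted p = 0.00053) and 0.77 ± 0.17 in Neurod6-detected cells (edgeR, adjusted p = 0.00069), and again in the last, from E16.0 to E17.5, by 1.27 ± 0.21 in Sox2-detected (edgeR, adjusted p = 6.7e-05) and 0.84 ± 0.17 in Neurod6-detected cells (edgeR, adjusted p = 0.0022). Between sets in WT it was 2.61-fold higher in Neurod6-detected than in Sox2-detected cells (1.39 ± 0.04, edgeR, adjusted p = 9.2e-25). Nova2 lies at ENSMUSG00000030411, chr7:18925888-18965319, plus strand.

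Nova1 was low throughout. It gave only 21 to 407 UMIs per library in Sox2-detected and 34 to 230 in Neurod6-detected cells, so its values are imprecise. In WT Neurod6-detected cells it was at 7.15, 8.34, 7.82 and 8.97 CPM at E12.5, 1.99, 2.56, 4.68 and 1.82 CPM at E14.5 and 3.41, 4.4, 4.27 and 3.44 CPM at E17.5, a fall that passed the test (-1.13 ± 0.24 in log2, edgeR, adjusted p = 0.00017) with no overlap between E12.5 and E17.5. In WT Sox2-detected cells it was at 6.8, 7.14, 7.19 and 8.28 CPM at E12.5 and 7, 11.8, 6.88 and 6.11 CPM at E17.5 (-0.07 ± 0.21, edgeR, adjusted p = 0.78), with M2 of E17.5 far above the other 3. Nova1 was lower in Neurod6-detected than in Sox2-detected cells over the 4 stages (-0.61 ± 0.06, edgeR, adjusted p = 2e-10), although at E12.5 the difference was 0.04 ± 0.09 (edgeR, adjusted p = 0.7). Nova1 lies at ENSMUSG00000021047, chr12:46694517-46818929, minus strand.

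CELF4 and RBFOX2 bind neuronal transcripts. Both genes were higher in Neurod6-detected than in Sox2-detected cells and rose with stage in these sets. Celf4 (ENSMUSG00000024268) was at 30.9, 24.8, 28.5 and 25.9 CPM in WT Sox2-detected cells at E12.5 and 139, 153, 124 and 125 CPM at E17.5. The WT Neurod6-detected cells had 127, 103, 110.1 and 128 CPM at E12.5 and 254, 201, 219 and 183 CPM at E17.5. The stages did not overlap in either set. The rise in Sox2-detected cells was 4.26-fold with the scaling of edgeR (2.09 ± 0.18 in log2, edgeR, adjusted p = 4.1e-11) and 4.91-fold in mean CPM. It was the largest of the 10 members there, and it was 2.75 ± 0.23 in log2 in cells with 1 gate gene only. In Neurod6-detected cells the rise was 0.78 ± 0.16 (edgeR, adjusted p = 9.2e-05), but in cells with 1 gate gene only it did not pass (0.10 ± 0.16, edgeR, adjusted p = 0.63). Cells in which no gate gene was detected held 362, 309.7, 348 and 213 CPM of Celf4 at E17.5 in WT, above the Neurod6-detected cells of the same library in all 4. Between sets in WT, Celf4 was 2.39-fold higher in Neurod6-detected than in Sox2-detected cells (1.26 ± 0.03, edgeR, adjusted p = 2.4e-26).

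Rbfox2 was at 37, 36.9, 34.2 and 32.3 CPM in WT Sox2-detected cells at E12.5 and 132, 129, 126 and 105 CPM at E17.5. The WT Neurod6-detected cells had 174, 139.6, 157 and 168 CPM at E12.5 and 346, 321, 288 and 269.9 CPM at E17.5. Neither set had overlapping stages, and Rbfox2 was lowest in Sox2-detected, intermediate in Eomes-detected and highest in Neurod6-detected cells in all 32 libraries. The log2 difference of Neurod6- over Sox2-detected cells was 1.76 ± 0.03 in WT (edgeR, adjusted p = 2.1e-30), a 3.39-fold difference. From E12.5 to E17.5 it rose by 1.60 ± 0.24 in Sox2-detected (edgeR, adjusted p = 1.2e-06), 0.85 ± 0.14 in Neurod6-detected (edgeR, adjusted p = 7.3e-06) and 0.46 ± 0.16 in Eomes-detected cells (edgeR, adjusted p = 0.019). The last of these turned in cells with 1 gate gene only (-0.27 ± 0.29, edgeR, adjusted p = 0.57), did not pass with 2 UMIs of Eomes asked (0.08 ± 0.16, edgeR, adjusted p = 0.69) and did not pass without WT E17.5 M2 (0.41, edgeR, adjusted p = 0.065). Rbfox2 lies at ENSMUSG00000033565, chr15:77078990-77307004, minus strand.

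Mean levels in the WT Eomes-detected cells lay between those of the other sets at all 4 stages for Elavl3, Nova2 and Rbfox2, and for Celf4 at E12.5 and E16.0 but not at E14.5 or E17.5. At E14.5 Celf4 was at 75 ± 14.3 CPM in the Eomes-detected and 76.5 ± 20.9 CPM in the Sox2-detected cells (mean ± SD, n = 4). At E17.5 it was at 130.0 ± 11.9 and 135 ± 13.9 CPM. These SDs are between embryos, whereas both sets come from the same libraries, and the difference of these sets at single stages was not tested. Elavl3 was at 345, 268, 308 and 309 CPM in WT Eomes-detected cells at E12.5 and 406, 383, 384 and 372 CPM at E17.5. Every late library was above every early one, but this change did not pass in edgeR. Rbfox2 was at 138, 128, 127 and 128 CPM at E12.5 and 214, 214, 187 and 171 CPM at E17.5, and again no early library reached a late one. These cells had more of both than the Sox2-detected cells, by 1.09 ± 0.03 in log2 for Elavl3 (edgeR, adjusted p = 1.9e-24) and 1.15 ± 0.03 for Rbfox2 (edgeR, adjusted p = 5.2e-24). Nova2 was at 23.3, 17.7, 19.1 and 21.4 CPM at E12.5 and 38.4, 45.9, 39.6 and 41.6 CPM at E17.5, and Celf4 at 76.9, 73.5, 73.5 and 76.1 CPM and 144, 136, 119 and 121 CPM. Over all stages together, the excess of Celf4 over the Sox2-detected cells was the smallest of the 4 (0.40 ± 0.04, edgeR, adjusted p = 4.7e-11) and did not pass in cells with 1 gate gene only (0.14 ± 0.11, edgeR, adjusted p = 0.36). Between E12.5 and E17.5, WT Neurod6-detected cells held 489 ± 121 CPM of Elavl3 at E14.5 and 516 ± 51.5 CPM at E16.0 (mean ± SD, n = 4), and 253 ± 64.8 and 284 ± 25.1 CPM of Rbfox2.

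Across the members, Ptbp1 and Elavl1 were lower in Neurod6-detected than in Sox2-detected cells, with Nova1 on the side of Ptbp1. Ptbp2, Elavl2, Elavl3, Elavl4, Nova2, Celf4 and Rbfox2 were higher there. All 10 members passed the test between Neurod6- and Sox2-detected cells in WT, 7 higher and 3 lower, where 86.1% of the 14273 genes tested passed, so most genes pass there and a call sets no gene apart. The median log2 difference was 0.80 for the members and -0.01 for all genes tested. Between Eomes- and Sox2-detected cells all 10 passed, 7 higher and 3 lower, against 70.3% of all genes. Between Neurod6- and Eomes-detected cells 9 passed, 4 higher (Elavl3, Nova2, Celf4 and Rbfox2) and 5 lower (Ptbp1, Ptbp2, Elavl1, Elavl2 and Elavl4), against 74.3%, and Nova1 did not (0.03 ± 0.08, edgeR, adjusted p = 0.74). The sums of a library come from the same embryo, which the library block takes up, and in part from the same cells, which it does not. The p-values of these set comparisons may therefore be too small, by an amount that was not tested. They show differences among 16 embryos' sums, not among cells. In cells with 1 gate gene only, the 10 members kept their signs between Neurod6- and Sox2-detected cells and all 10 passed again, where 11414 of the 13433 genes tested passed. In the same cells Ptbp2 turned in both other comparisons, to -0.012 for Eomes- over Sox2-detected (edgeR, adjusted p = 0.87) and 0.16 for Neurod6- over Eomes-detected cells (edgeR, adjusted p = 0.00072), and Celf4 did not pass for Eomes- over Sox2-detected cells.

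**Figure D2:**
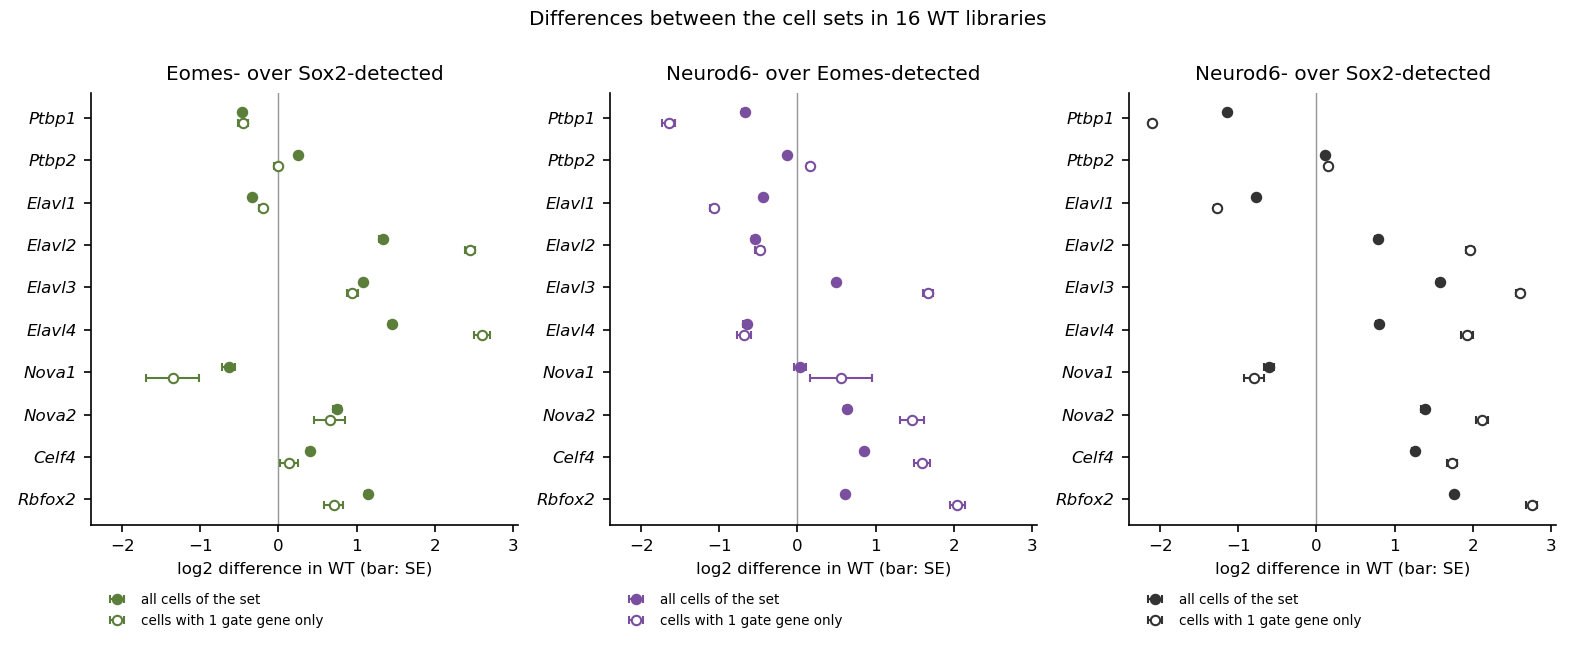
Log2 difference of each member between cell sets in WT, with the SE as a bar, from the fit over 48 sums of 16 libraries. Filled points use all cells of a set and open points cells with only 1 of the 3 gate genes. Most differences are larger for the open points, those of Elavl2 and Elavl4 are negative for Neurod6- over Eomes-detected cells, and Ptbp2 lies near 0 in each panel.

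The change with stage was counted in the same way. From E12.5 to E17.5 in WT, 9 of 10 members passed in Sox2-detected cells, 6 higher (Elavl2, Elavl3, Elavl4, Nova2, Celf4 and Rbfox2) and 3 lower (Ptbp1, Ptbp2 and Elavl1), where 60.1% of the 13826 genes tested passed. In Eomes-detected cells 7 passed, 4 higher (Elavl2, Nova2, Celf4 and Rbfox2) and 3 lower (Ptbp1, Ptbp2 and Elavl1), against 50.3% of 13144 genes. In Neurod6-detected cells 9 passed, 4 higher (Elavl3, Nova2, Celf4 and Rbfox2) and 5 lower (Ptbp1, Ptbp2, Elavl1, Elavl4 and Nova1), against 59.8% of 14597 genes. The median log2 change of the members was 1.10, 0.12 and -0.19 in these sets, and that of all genes tested was 0.01, 0.01 and 0.04. Leaving out cells with a UMI of Gad1, Gad2, Dlx1 or Dlx2, which mark interneurons, left these 3 counts at 9, 7 and 9. These cells were not left out of the cells with 1 gate gene only, and their part there was not tested. Over libraries of both genotypes, their median share of Sox2-detected cells was 2.69% at E12.5 and 23.6% at E17.5. It was 1.55% and 9.08% in Eomes-detected and 1.51% and 4.92% in Neurod6-detected cells. Oligodendrocyte precursor RNA, which was also higher at E17.5, was not removed, and its part in these changes was not tested. Depth fell with stage: median UMIs per cell of WT libraries were 9351 to 11236 at E12.5 and 5752 to 6688 at E17.5 in Sox2-detected cells. In Neurod6-detected cells they were 8138 to 9481.5 and 4115.5 to 5566. The Sox2-detected share of retained cells was 45.8% to 75.2% at E12.5 and 13.8% to 22.6% at E17.5. The part of depth in these changes was not tested, and litter cannot be told apart from stage. Restricted to cells with 1 gate gene only, the count in Eomes-detected cells was 2 (Ptbp2 and Elavl1, both lower) of 9 members tested, where 1413 of the 7562 genes tested passed, on only 14 to 152 cells per library.

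Most of the change between E12.5 and E17.5 fell in the first and last of the 3 steps. From E12.5 to E14.5, 9 members passed in Sox2-detected cells, where 38.2% of all genes passed: Elavl2, Elavl3, Elavl4, Nova2, Celf4 and Rbfox2 were higher and Ptbp2, Elavl1 and Nova1 lower. In Eomes-detected cells 5 passed against 29.7% of all genes, Elavl2 and Elavl4 higher and Ptbp2, Elavl1 and Nova1 lower. In Neurod6-detected cells 8 passed against 37.6%, Elavl3, Nova2, Celf4 and Rbfox2 higher and Ptbp1, Ptbp2, Elavl1 and Nova1 lower. In cells with 1 gate gene only, both rises in Eomes-detected cells turned (Elavl2 -0.33 and Elavl4 -0.26; edgeR, adjusted p = 0.34 and 0.5), as did that of Celf4 in Neurod6-detected cells (-0.027, edgeR, adjusted p = 0.93). There Elavl2 and Elavl4 in Sox2-detected, Elavl1 in Eomes-detected and Ptbp1 and Elavl3 in Neurod6-detected cells did not pass either, and Nova1 was not tested in Eomes-detected cells. Between E14.5 and E16.0 edgeR called 0 members in each set, where 9.18%, 6.6% and 11.7% of all genes passed. For that step 2 members in Sox2-detected cells (Ptbp1 and Nova2, both lower) and 0 in the other sets had an unadjusted p under 0.05, and DESeq2 called 1 (Ptbp1 in Sox2-detected cells). Nova2 passed that step in Sox2-detected cells without WT E16.0 F1 (-0.76, edgeR, adjusted p = 0.016). From E16.0 to E17.5, 8 members passed in Sox2-detected cells (Elavl2, Elavl3, Nova2, Celf4 and Rbfox2 higher, Ptbp1, Ptbp2 and Elavl1 lower; 22.7%), 3 in Eomes-detected cells (Nova2 and Celf4 higher, Elavl1 lower; 7.85%), none of which passed in cells with 1 gate gene only, and 2 in Neurod6-detected cells (Nova2 higher, Elavl1 lower; 5.99%). Elavl1 and Nova2 passed this last step in each of the 3 sets. Elavl1 was at 295 ± 12.1 CPM at E16.0 and 188 ± 29 CPM at E17.5 in WT Sox2-detected cells (mean ± SD, n = 4), and Nova2 at 13.2 ± 4.74 and 30.7 ± 2.2 CPM.

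Several calls of single steps ended when 1 library was left out, unlike those from E12.5 to E17.5, of which only that of Rbfox2 in Eomes-detected cells did. In the first step in Neurod6-detected cells, Ptbp1 did not pass without any 1 of WT E12.5 M2 and F2 and WT E14.5 M1, M2 and F2 (at the weakest -0.46, edgeR, adjusted p = 0.13). Elavl3 (0.31, edgeR, adjusted p = 0.12 at the weakest) and Celf4 (0.34, edgeR, adjusted p = 0.12) did not pass there without any 1 of WT E12.5 M2 and F1 and WT E14.5 M1 and M2. With 2 UMIs of Neurod6 asked of a cell, that step kept 4 of its 8 calls and lost those of Ptbp1, Elavl3, Celf4 and Rbfox2. In Eomes-detected cells the first step of Elavl4 did not pass without any 1 of WT E12.5 M2, F1 and F2 and WT E14.5 M1 and M2 (0.28, edgeR, adjusted p = 0.15 at the weakest), nor the last step of Celf4 without WT E16.0 M2 or WT E17.5 M2 (0.47, edgeR, adjusted p = 0.06). In Sox2-detected cells the last step did not pass for Elavl2 without WT E16.0 M2 or WT E17.5 M1 (0.44, edgeR, adjusted p = 0.07), for Elavl3 without WT E16.0 M2 (0.64, edgeR, adjusted p = 0.058) and for Ptbp2 without WT E16.0 F1 (-0.22, edgeR, adjusted p = 0.1).

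**Figure D3:**
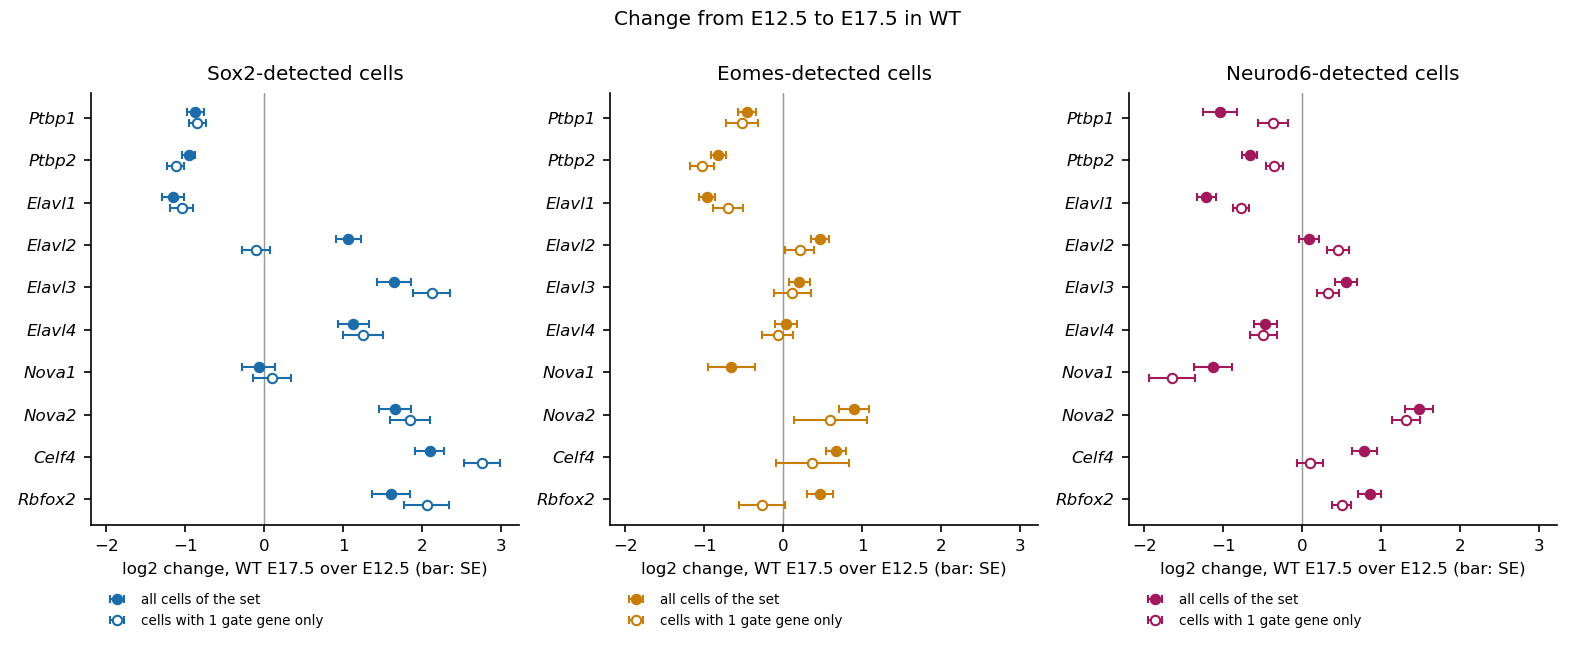
Log2 change of each member from E12.5 to E17.5 in WT, with the SE as a bar, in the 3 cell sets. Filled points use all cells of a set and open points cells with only 1 of the 3 gate genes, for which Nova1 was too low to be tested in Eomes-detected cells. Ptbp1, Ptbp2 and Elavl1 lie below 0 in every panel, and Nova2 lies above 0 in every panel.

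The sums of the Sox2- and Neurod6-detected cells drew closer with stage for most of the neuronal members. These are sums of overlapping sets, not of pure progenitors and neurons. Of the Sox2-detected cells of a library, 9.18% to 30.1% also held a Neurod6 UMI at E12.5, and 31.4% to 54.6% at E17.5. The log2 difference of Neurod6- over Sox2-detected cells in WT changed from 1.69 at E12.5 to 0.13 at E17.5 for Elavl4, from 2.00 to 0.71 for Celf4, from 2.16 to 1.10 for Elavl3 and from 2.10 to 1.38 for Rbfox2. The interaction test called 7 members, 6 with a smaller or more negative difference at E17.5 (Elavl2, Elavl3, Elavl4, Nova1, Celf4 and Rbfox2) and Ptbp2 with a larger one, where 51.8% of all genes passed. The change in the difference was -1.57 ± 0.11 for Elavl4 (edgeR, adjusted p = 7.2e-13), -1.28 ± 0.10 for Celf4 (edgeR, adjusted p = 1.8e-12) and 0.32 ± 0.05 for Ptbp2 (edgeR, adjusted p = 1.3e-06). Ptbp1 (-0.16 ± 0.09, edgeR, adjusted p = 0.14), Elavl1 (-0.02 ± 0.06, edgeR, adjusted p = 0.77) and Nova2 (-0.15 ± 0.12, edgeR, adjusted p = 0.31) did not pass. In cells with 1 gate gene only, 2 members turned: Elavl2 from -0.95 to 0.55 (edgeR, adjusted p = 0.0037) and Ptbp1 from -0.16 to 0.44 (edgeR, adjusted p = 0.0054), while Celf4 and Elavl3 moved further down, to -2.68 and -1.81. The interaction of Ptbp1 passed without WT E17.5 M2 (-0.24, edgeR, adjusted p = 0.036) or F2 (-0.26, edgeR, adjusted p = 0.034), and over all alternatives its adjusted p ran from 0.0054 to 0.62.

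Chd8 was read first in the comparison of het with WT, and then the members, none of which passed when the 4 stages were averaged. The mutated gene was at 40.1 ± 1.59 CPM in WT and 29.4 ± 6.47 CPM in het Sox2-detected cells at E12.5 (SD, n = 4), and at 54.4 ± 11.8 and 45.8 ± 9.39 CPM at E17.5. Averaged over stages, the log2 difference of Chd8 was -0.27 ± 0.07 in Sox2-detected (edgeR, adjusted p = 0.098), -0.27 ± 0.06 in Eomes-detected (edgeR, adjusted p = 0.055) and -0.29 ± 0.08 in Neurod6-detected cells (edgeR, adjusted p = 0.13), none of which passed without the pairs. With the pairs of libraries as a block it passed in all 3 sets, at -0.27 ± 0.05 (edgeR, adjusted p = 0.0073), -0.28 ± 0.05 (adjusted p = 0.0032) and -0.30 ± 0.05 (adjusted p = 0.0021), and het was lower in 15 of 16 pairs in each set. In that fit too, 0 members passed when averaged over stages. A 3′ end outside a mutated stretch need not show the mutation. In Sox2-detected cells the members' estimates, none of which passed, were above 0 for Ptbp2, Elavl1, Elavl2, Elavl3 and Nova2 and below it for Ptbp1, Elavl4, Nova1, Celf4 and Rbfox2. In Eomes-detected cells those for Ptbp2, Elavl1, Elavl2, Elavl3 and Rbfox2 were above 0 and those for Ptbp1, Elavl4, Nova1, Nova2 and Celf4 below, and in Neurod6-detected cells those for Elavl1, Elavl2 and Nova2 above and for Ptbp1, Ptbp2, Elavl3, Elavl4, Nova1, Celf4 and Rbfox2 below. The members' differences ran from -0.15 to 0.11 in Sox2-detected, from -0.11 to 0.07 in Eomes-detected and from -0.08 to 0.04 in Neurod6-detected cells, with SEs between 0.04 and 0.16. In Neurod6-detected cells at E17.5, Ptbp1 was at 29.3, 54.3, 43 and 54.2 CPM in WT and 30.5, 53.4, 35 and 50.9 CPM in het, Elavl3 at 608, 549, 563 and 524 and 653, 529, 657 and 518 CPM, and Rbfox2 at 346, 321, 288 and 269.9 and 309, 286, 373 and 264 CPM. The genotypes overlapped for each of the 3. For Ptbp1 the averaged difference was -0.03 ± 0.05 in Sox2-detected and -0.06 ± 0.11 in Neurod6-detected cells. With edgeR and no block, 0 of 10 members passed and 0 had an unadjusted p under 0.05 in each set. There 0.47%, 0.281% and 0.226% of all genes passed, and DESeq2 called 0 members. With the block, only Celf4 in Eomes-detected cells had an unadjusted p under 0.05 (-0.12 ± 0.05 in log2, edgeR, adjusted p = 0.29). Whether the het effect differed between stages was tested as well, and edgeR and DESeq2 called 0 members in each set. In edgeR without the block 0% (Sox2-detected), 0% (Eomes-detected) and 0% (Neurod6-detected) of all genes passed. There 1, 1 and 0 members (Elavl1) had an unadjusted p under 0.05. With the block no member passed, but Elavl1, Elavl3 and Ptbp2 had an unadjusted p under 0.05 in each set. So did Elavl4 and Rbfox2 in Sox2-detected and Elavl2 in Neurod6-detected cells.

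Elavl1 at E12.5 came closest to a genotype difference. In Sox2-detected cells it was at 334, 378, 382 and 364 CPM in WT and 444, 417, 559 and 421 CPM in het, and in Eomes-detected cells at 252, 299, 283 and 269.8 CPM and 327, 331, 357 and 314 CPM. In Neurod6-detected cells it was at 211, 276, 239.6 and 224 CPM in WT and 263, 305, 258 and 239 CPM in het. The genotypes did not overlap in Sox2- and Eomes-detected cells and overlapped in Neurod6-detected cells, and het was higher in 4 of 4 pairs in each set. The log2 difference was 0.42 ± 0.14 in Sox2-detected (edgeR, adjusted p = 0.098), 0.36 ± 0.10 in Eomes-detected (edgeR, adjusted p = 0.095) and 0.26 ± 0.12 in Neurod6-detected cells (edgeR, adjusted p = 0.35), none of which passed. With the pairs as a block in edgeR it passed in all 3 sets, at adjusted p = 0.0097, 0.015 and 0.037, in a fit that called 2159, 778 and 632 of all genes at E12.5. At this stage the deviations of paired libraries from their group means had r from 0.00 to 0.39 in Sox2-, -0.31 to 0.41 in Eomes- and 0.00 to 0.50 in Neurod6-detected cells, with 1, 1 and 3 of the 4 pairs over 0.1. Elavl1 also passed in Sox2- and Eomes-detected cells with DESeq2 (adjusted p = 0.025 and 0.0073), and with edgeR without het E12.5 M2 (adjusted p = 0.02 and 0.025) or the 3 E17.5 libraries that stood apart (0.033 and 0.042). Over all alternatives the adjusted p ran from 0.0097 to 0.53 in Sox2-detected, from 0.0073 to 0.45 in Eomes-detected and from 0.037 to 0.82 in Neurod6-detected cells, and the log2 difference stayed above 0. Depth moved with genotype at E12.5: the median UMIs per Sox2-detected cell were 9351 to 11236 in the WT and 4861 to 11478 in the het libraries, and its part in the result was not tested. The summed level of 7 excitatory neuron markers was 3028 to 3249 CPM in WT and 3323 to 4072 CPM in het Eomes-detected cells, without overlap, while in Sox2- and Neurod6-detected cells the genotypes overlapped (531 to 679.8 against 496 to 909 CPM and 3668 to 4519 against 3742 to 5449.9 CPM). The sum of 7 radial glia markers had a median of 2724 CPM in WT and 2416 CPM in het Sox2-detected cells, 1776 and 1241 CPM in Eomes-detected and 1439 and 983 CPM in Neurod6-detected cells, with overlapping ranges in each. No marker of either list was at 0 in all 4 libraries of a group, and their part in the result was not tested. In M2, the pair in which the het library was at least as deep as its partner, Elavl1 was at 378 CPM in WT and 417 CPM in het Sox2-detected cells, at 299 and 331 CPM in Eomes-detected and at 276 and 305 CPM in Neurod6-detected cells. This was the smallest rise of the 4 pairs in Sox2- and Eomes-detected cells but not in Neurod6-detected cells, and 1 pair does not test the part of depth.

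At single stages edgeR called 0 of 40 member values (10 members at 4 stages) in each set. Without the pairs, an unadjusted p under 0.05 was reached by 1 in Sox2-detected, 2 in Eomes-detected and 1 in Neurod6-detected cells, all at E12.5 (Elavl1 in each set and, lower in het, Celf4 in Eomes-detected cells at -0.30 ± 0.13, edgeR, adjusted p = 0.29), and DESeq2 called 1, 1 and 0 (Elavl1 at E12.5). At that stage DESeq2 called 981, 495 and 353 of all genes. With edgeR and no block, of all genes in Sox2-detected cells 0.853% (E12.5), 0% (E14.5), 0.0217% (E16.0) and 0% (E17.5) passed, in Eomes-detected cells 0.342% (E12.5), 0% (E14.5), 0.00761% (E16.0) and 0.0152% (E17.5), and in Neurod6-detected cells 0.00685% (E12.5), 0% (E14.5), 0% (E16.0) and 0% (E17.5). With the pairs as a block, Elavl4 also passed at E12.5 in Sox2-detected cells, in a fit that called 2159 of all genes there. Its level was 111, 69, 96.3 and 86.3 CPM in WT and 65.7, 85, 57.5 and 59.5 CPM in het (-0.35 ± 0.12 in log2, edgeR with block, adjusted p = 0.045; without block 0.33; over all alternatives 0.045 to 0.71). The genotypes overlapped there, het was lower in 3 of 4 pairs, and 1 of the 4 pairs had an r over 0.1 in this set and stage. Other members at E12.5 reached an unadjusted p under 0.05 in edgeR with the block but did not pass. Ptbp2, higher in het, and Celf4, lower in het, did so in each set. Elavl3, lower in het, did so in Eomes- and Neurod6-detected cells, and Elavl2, higher in het, in Eomes-detected cells. Rbfox2 did so in Sox2-detected cells, lower in het (-0.39 ± 0.13 in log2, edgeR with block, adjusted p = 0.055). At later stages, some members also reached an unadjusted p under 0.05 in that fit but did not pass. These were Ptbp2 at E14.5, lower in het, and Elavl3 at E16.0, higher in het, in each set. In Sox2-detected cells Elavl2 and Elavl4 at E16.0, both higher in het, reached it as well.

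**Figure D4:**
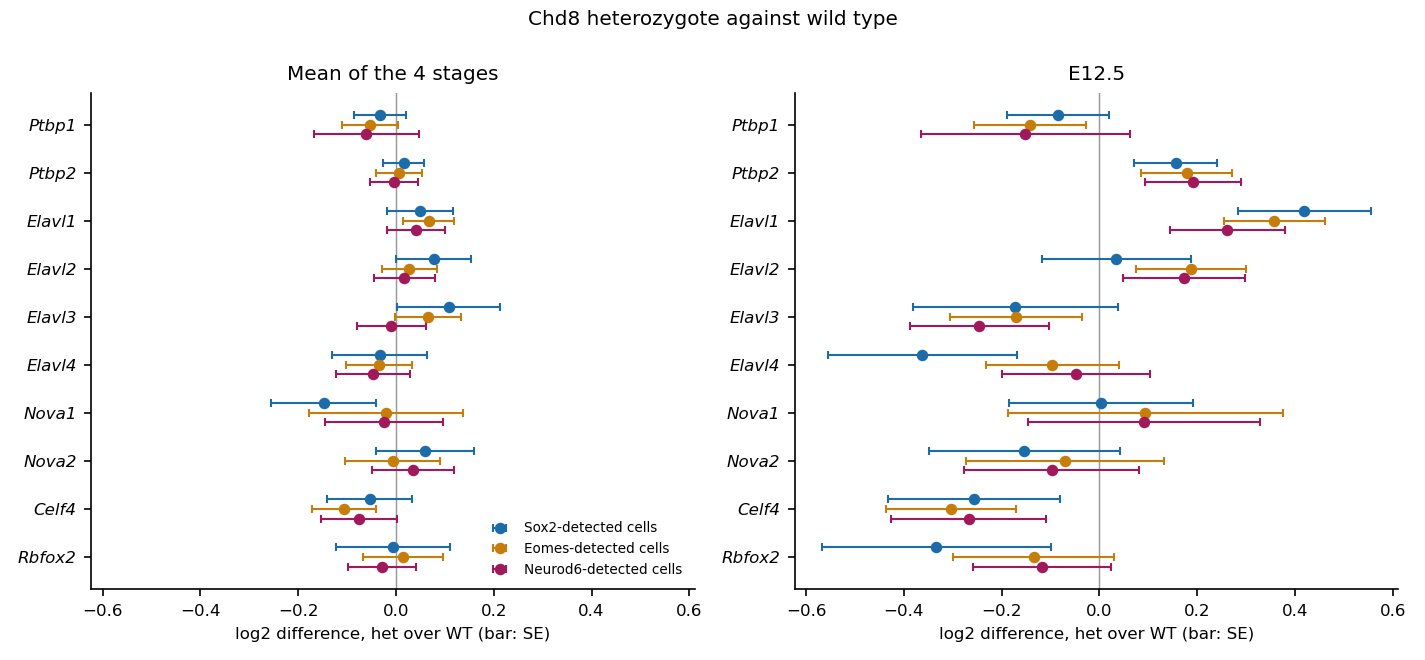
Log2 difference of each member between het and WT, with the SE as a bar, averaged over the 4 stages and at E12.5, in the 3 cell sets. The averaged differences cluster around 0, and at E12.5 Elavl1 lies on the side of het in each set and is the farthest from 0 in Sox2- and Eomes-detected cells, while in Neurod6-detected cells Celf4 lies about as far on the side of WT.

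**Figure D5:**
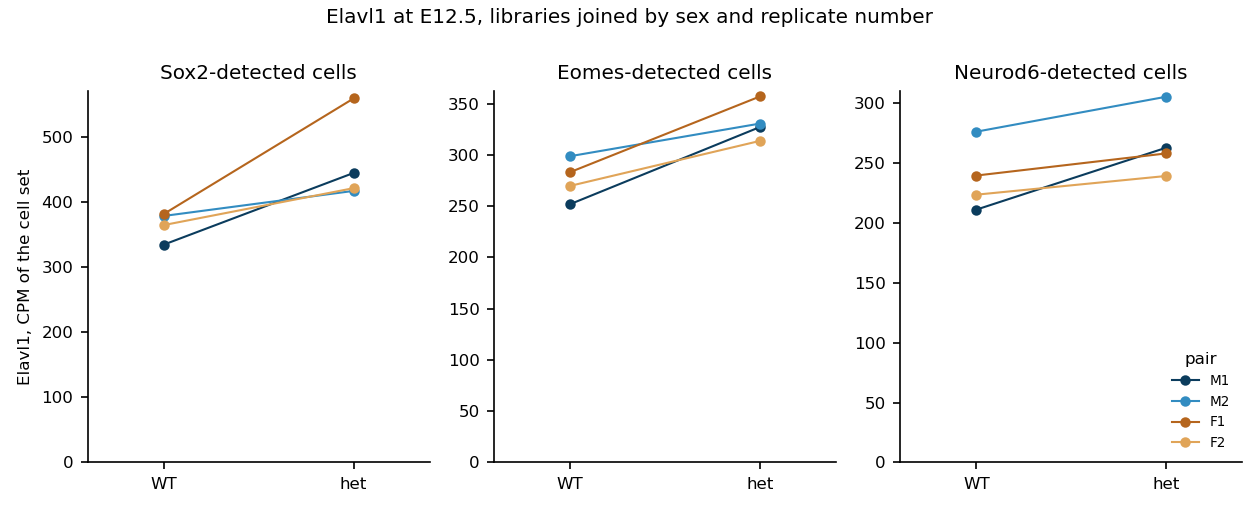
Elavl1 level at E12.5 in CPM (axes from 0) in each WT and het library, joined by sex and replicate number, in the 3 cell sets. All 4 lines rise from WT to het in each panel, and the ranges of the genotypes overlap in the Neurod6-detected cells.

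The patterns of the members were compared with those of 8479 genes by Pearson's r over 12 WT means, 4 stages in each of 3 sets, which share libraries and cells, so r is given as a description. The genes most like Elavl1 were Hspa9 (r = 0.99) and Srsf9 (r = 0.99). Elavl3 was most like another member, Rbfox2 (r = 0.99), and then Rundc3a (r = 0.99), and Rbfox2 was nearest to Sema6c (r = 0.99) and Elavl3 (r = 0.99). Celf4 was most like Rtn1 (r = 0.98) and Mapt (r = 0.98), which encode a reticulon and the microtubule protein tau, and Nova2 like Brsk1 (r = 0.98) and Arid4a (r = 0.98). Elavl2 was most like Igsf21 (r = 0.98) and Plcxd2 (r = 0.98), and Elavl4 like Plcxd2 (r = 0.99) and Chmp1b (r = 0.98). The likest genes of Ptbp2 were Ccnj (r = 0.96) and Dcun1d5 (r = 0.95), and those of Nova1, Rrbp1 (r = 0.94) and Gmfb (r = 0.92), had lower r. Among the members, Ptbp1 and Elavl1 ran together (r = 0.925), as did Elavl2 and Elavl4 (r = 0.963), and Ptbp1 ran against Rbfox2 (r = -0.913). Ptbp1 and Ptbp2 had r = 0.269.

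A wider list of 26 RNA-binding protein genes gave the surroundings of these changes, 25 of which were expressed enough to be tested in WT sets. All 25 passed between Neurod6- and Sox2-detected cells in WT, where 86.1% of all genes passed, 16 higher and 9 lower, with a median log2 difference of 1.18 against -0.01 for all genes. The largest rises were those of Rbfox1 (3.06 ± 0.07), Khdrbs2 (2.36 ± 0.04) and Srrm3 (2.29 ± 0.06): RBFOX1 is a paralog of RBFOX2, KHDRBS2 (SLM1) a splicing regulator and SRRM3 a factor for neuronal microexons. The largest falls were those of Mbnl3 (-1.85 ± 0.13), Qk (-1.74 ± 0.03) and Msi2 (-0.78 ± 0.02): QK and MSI2 bind RNA in progenitors and glia, and MBNL3 is a muscleblind paralog. From E12.5 to E17.5 in Neurod6-detected cells 16 of 25 passed, a share near the 59.8% of all genes, 13 higher and 3 lower, with a median of 0.51 against 0.04 for all genes. Here Rbfox1 (4.45 ± 0.34), Srrm3 (1.57 ± 0.27) and Cpeb3 (1.42 ± 0.33) rose most, and Mbnl3 (-3.45 ± 0.39), Khdrbs1 (-0.59 ± 0.08) and Msi1 (-0.57 ± 0.19) fell most. Between het and WT averaged over stages none of the 25 passed in edgeR in any set, and at an unadjusted p under 0.05 there were 0 in Sox2-detected, 0 in Eomes-detected and 1 in Neurod6-detected cells.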

How the data were processed

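The authors deposited 1 matrix of whole-number UMI counts per library, 145082 cell barcodes in all. Per the submitters' processing notes the tools and build were STAR 2.7.9a with STARsolo, Cell Ranger and mm10. The way cells were called and the strand setting are not given in these sources. From the counts, cells with under 1000 UMIs, under 500 genes or over 10% mitochondrial UMIs were left out. Called doublets were removed (5471 cells, a score against 0.5 simulated doublets per cell at an assumed 0.8% per 1000 cells). A cell entered a set with at least 1 UMI of Sox2, Eomes or Neurod6, and free RNA was not modelled, so a gate UMI may be free RNA.

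The counts of a set were summed per library and tested with edgeR 4.0.16 (quasi-likelihood, TMM scaling, filterByExpr) in R 4.3.3, in 8 groups for genotype and stage, and with the library as a block for sets in WT. Log2 changes from edgeR use TMM factors, which the printed CPM values do not, so they can differ from ratios of CPM. P-values were adjusted over all genes tested by Benjamini-Hochberg, at a threshold of 0.05. The fits were tested on simulated data with 200 changed genes. Libraries are single embryos, so p-values of genotype and stage without a block measure the spread between embryos and their processing. Those of the set comparisons, with the library as a block, measure how far the set differences spread between libraries. Positions are from GENCODE M21, which held 99.6% of the gene identifiers. Python 3.11.15, numpy 2.4.6, pandas 2.3.3 and scikit-learn 1.9.0 were used.

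The labels describe litter- and sex-matched pairs, and the sample codes of same-named WT and het embryos share a prefix, so the names were taken to pair the samples. Deviations of paired libraries from their group means correlated at a median of 0.522 (lowest -0.307, highest 0.885, and 36 of 48 values over 0.1). At E12.5 only 1 of 4 pairs in Sox2-, 1 in Eomes- and 3 in Neurod6-detected cells were over 0.1. The rule names all 10 members, and comparisons in which no member passed are given partly as counts. Of the other lists all genes were counted, and the 3 called genes with the largest change in each direction or, around Ptbp1, all 4 were named. For likeness the 2 genes of highest Pearson's r of log2(CPM + 1) were named, among genes with a mean of at least 10 CPM. Those of Ptbp1 are not reported here. The members and lists were chosen with earlier results of these data known. Alternatives were RLE scaling, no low-count filter, DESeq2 1.42.0, a gate of 2 UMIs, cells with 1 gate gene only, cells with GABA genes left out, doublets kept, a replicate block, no library block and each library left out. Leaving out 3 E17.5 libraries was added after seeing the data.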

Additional observations from a re-analysis of the deposited data

Results flagged for a closer look

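In 240 groups of 4 libraries (10 members, 3 cell sets and 8 groups), the libraries of a group were checked for 1 value far from the other 3 by the ratio of its gap to the whole range, by Dixon's 95% critical value. There were 15 such values, several from the same library, where chance gives about 1 in 20 groups, or 12. The 240 groups share libraries and cells, so they are not independent. At E12.5, het M2, the deep het library, had 30.7 CPM of Celf4 (the group median was 19.1) and 43.2 CPM of Rbfox2 (the group median was 21.8) in Sox2-detected cells, and 283 CPM of Elavl2 (the group median was 378) in Neurod6-detected cells. WT E12.5 M1 had 138 CPM of Rbfox2 in Eomes-detected cells (the group median was 128).

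At E14.5, WT F1 had 5.56 CPM of Nova1 in Eomes-detected (the group median was 2.33) and 6.93 CPM in Sox2-detected cells (the group median was 3.96), and 95.3 CPM of Ptbp1 in Eomes-detected cells (the group median was 106). Its paired embryo, het F1, had 3.33 CPM of Nova1 in Neurod6-detected cells (the group median was 1.95). At E16.0, WT F1 had 99.3 CPM of Celf4 (the group median was 78.1) and 216 CPM of Elavl3 (the group median was 159) in Sox2-detected cells. Among het libraries of that stage, F1 had 404 CPM of Elavl3 (the group median was 370.1) and M2 had 603 CPM of Elavl4 (the group median was 528) in Eomes-detected cells, and M1 had 6.74 CPM of Nova1 in Sox2-detected cells (the group median was 6). At E17.5, WT M2 had 11.8 CPM of Nova1 in Sox2-detected cells (the group median was 6.94), and WT F1 had 302 CPM of Elavl2 in Neurod6-detected cells (the group median was 404).

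For 7 members the log2 difference of Neurod6- over Sox2-detected cells in WT differed between E12.5 and E17.5 by the interaction test in edgeR. The change was -1.57 for Elavl4, -1.28 for Celf4, -1.05 for Elavl3, -1.04 for Nova1, -0.95 for Elavl2, -0.72 for Rbfox2 and 0.32 for Ptbp2.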

How the results depend on the processing

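The 310 member results were recomputed as 11901 values. Of these 11802 kept their side of the threshold, and their direction where called, while 53 lost a call, 37 gained one and 9 turned. Most of the 11901 values, 9280, came from leaving out 1 library. In 8600 the member was called in neither fit, and 408 of these changed sign but are counted as kept. Leaving out 1 library turned 0 called values, ended 25 calls and made 9. Of the other changes 30 came in cells with 1 gate gene only and 16 with a gate of 2 UMIs. All 9 turned values lie in cells with 1 gate gene only: in log2, Ptbp2 was -0.012 (Eomes- over Sox2-detected) and 0.16 (Neurod6- over Eomes-detected), the interaction was 0.55 for Elavl2 and 0.44 for Ptbp1, the first step in Eomes-detected cells was -0.33 for Elavl2 and -0.26 for Elavl4, that of Celf4 in Neurod6-detected cells was -0.027, and from E12.5 to E17.5 Rbfox2 was -0.27 in Eomes-detected and Elavl2 -0.11 in Sox2-detected cells. There the Eomes-detected calls fell from 7 to 2 between E12.5 and E17.5 and from 8 to 1 over the steps, and Nova1 was too low to be tested. A gate of 2 UMIs left 6 of 10 step calls in Neurod6-detected cells. At single stages the genotype calls of members went from 0 to 2 (Sox2-), 1 (Eomes-) and 1 (Neurod6-detected) with the replicate block, and to 1 in Sox2- and 1 in Eomes-detected cells with DESeq2 or without the 3 E17.5 libraries; leaving out 1 library gave 0 to 1 in both. The replicate block changed no other call of a member. Stage and set results have no replicate block, because each pair lies within 1 stage. Over all genes, the E12.5 genotype calls in Sox2-, Eomes- and Neurod6-detected cells were 118, 45 and 1; they became 2159, 778 and 632 with the block, 981, 495 and 353 with DESeq2 and 62, 5 and 1 with no filter. They were also 587, 230 and 55 without the 3 E17.5 libraries, 252, 53 and 3 with RLE scaling, 167, 15 and 1 with a gate of 2 UMIs and 172, 0 and 6 in cells with 1 gate gene only. At the later stages, 0 to 3 calls became 0 to 6, and the test of a differing genotype effect, with 0 calls, gave up to 11 (DESeq2, Sox2-detected cells). Averaged over stages they were 65, 37 and 33, against 218, 126 and 124 with the block, 131, 66 and 67 with DESeq2, 28, 20 and 18 with no filter, 32, 32 and 33 with a gate of 2 UMIs, and 14, 0 and 14 in cells with 1 gate gene only. In those cells the Eomes-detected calls of all genes fell from 6618 to 1413 from E12.5 to E17.5, and from 3903, 867 and 1032 to 422, 6 and 59 over the steps, with fewer cells and fewer genes tested, and Eomes- over Sox2-detected calls from 10039 to 5077. In Neurod6-detected cells the first step went from 5494 to 3432 in cells with 1 gate gene only, and the second from 1711 to 2738 there, 1080 with no filter and 3133 without the 3 E17.5 libraries, which took the second step in Eomes-detected cells to 1378. The interaction calls fell from 7397 to 3271 with no library block. Where not said otherwise, the cause of a change was not tested. Low counts limit Nova1, and Eomes-detected cells with 1 gate gene only numbered as few as 14 in a library.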

Other observations

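Of the retained cells 12586 held no UMI of Sox2, Eomes or Neurod6, between 124 and 1344 per library, and these cells entered no test. In them the neuronal members were higher at E17.5 than at E12.5 in every WT library for Elavl3, Celf4, Rbfox2 and Nova2. Elavl3 was at 65.3, 60.8, 76.4 and 52.4 CPM at E12.5 and 331, 372, 355 and 256 CPM at E17.5 (M1, M2, F1, F2), and Rbfox2 at 38.9, 45.3, 46.9 and 45.9 CPM and 169, 211, 182 and 171 CPM. Ptbp1 was at 119, 121, 136 and 126 CPM and 54.8, 66.3, 52.7 and 69.7 CPM. Elavl1 at E12.5 was at 296, 312, 316 and 313 CPM in these cells in WT and 436, 360.4, 515 and 396 CPM in het, without overlap, as in the Sox2-detected cells of the same libraries. These values were not tested.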
